A study of Homo sapiens with 4 samples.

Results

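Heme breakdown and iron handling were examined through 10 genes, chosen by symbol for their roles in heme oxygenation, biliverdin reduction, iron storage, iron transport and the start of heme synthesis. They were 10 of the 61541 genes in the count table. RNA was sequenced from MDA-MB-231, an established human breast cancer line. Control cells were parental cells passaged in ordinary medium with no metal added, and cadmium-resistant cells were the same line passaged long term in medium with cadmium sulfate, raised in steps to a final 10 µM. Each group had 2 libraries (n = 2). Control libraries carry the numbers 2 and 3 in the count table, which do not match the numbers of the sample labels, so they are named control 2 and control 3, and the others cadmium 1 and cadmium 2. The control labels say biological replicate, while the cadmium labels say only replicate and not separate selection. The p-values therefore speak for these libraries only and do not cover a spread between selections.

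Heme oxygenase opens the heme ring and releases iron, carbon monoxide and biliverdin, which biliverdin reductase turns into bilirubin. The iron set free can be stored in ferritin, a shell of heavy and light chains, or leave the cell through ferroportin, while new iron enters through the transferrin receptor. Much of iron handling is controlled after transcription: iron regulatory proteins bind hairpins called iron-responsive elements, which block translation when they lie before the coding sequence and stabilize the transcript when several lie behind it. Counts of RNA do not show the translational part of this control.

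The iron-responsive element was looked for to show the sequences behind this control. The genes were chosen by role, and genes of iron storage and transport are the known carriers of the element. The shares below therefore describe the choice of genes and are no independent result. The pattern was a bulged C, 5 bases, the loop CAGTGN and 5 more bases, of which at least 4 could pair with the 5 before the loop (G with T allowed), read on the transcript strand of GENCODE transcripts. It was found in an untranslated region of 5 of the 10 genes (FTH1, FTL, TFRC, SLC11A2 and SLC40A1), against 6.42% of 19702 protein-coding genes. With all 5 pairs required, 4 of the 10 and 0.919% of the protein-coding genes held it, and SLC11A2 dropped out. The sequences below show the shared hairpin, on hg38 and 5′ to 3′, with the loop in capitals.
FTL, 5′ UTR, chr19:48965336-48965362, plus strand: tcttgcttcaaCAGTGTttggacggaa
SLC40A1, 5′ UTR, chr2:189580662-189580688, minus strand: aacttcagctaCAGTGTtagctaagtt
SLC11A2, 3′ UTR, chr12:50988270-50988296, minus strand: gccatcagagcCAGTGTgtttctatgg
TFRC copy 1, 3′ UTR, chr3:196050980-196051006, minus strand: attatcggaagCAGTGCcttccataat
TFRC copy 2, 3′ UTR, chr3:196050576-196050602, minus strand: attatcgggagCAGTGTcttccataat
TFRC copy 3, 3′ UTR, chr3:196050511-196050537, minus strand: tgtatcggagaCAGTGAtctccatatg
TFRC copy 4, 3′ UTR, chr3:196050464-196050490, minus strand: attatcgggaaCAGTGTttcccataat
FTL and SLC40A1 had 1 match to the pattern before the coding sequence, as did FTH1, and TFRC had 4 matches behind it. Copies are numbered among the matches only, and a hairpin with another loop would not be found.

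Total reads assigned to genes ranged from 51934729 to 61916007 per library. Values below are DESeq2 normalized counts unless a level is compared between genes, where RPKM values are given, which are reads divided by exon length and by the library's total of assigned reads. The controls differed from each other more than the cadmium libraries did. Of 12924 genes whose normalized counts averaged 100 or more, 14.2% were over 2-fold apart in the controls and 0.317% in the cadmium pair. Markers of this mesenchymal line were high in every library, with VIM at 135 to 168 RPKM and AXL at 301 to 337 RPKM, while SPARC stayed at 0.582 RPKM or less. Of 7 luminal or epithelial markers listed as low, ESR1 and PGR lay at 0.0361 RPKM or less, and CDH1 and ERBB3 reached 1.83 and 1.47 RPKM. GATA3 was at 2.58 to 4.98 RPKM and EPCAM at 4.94 to 16.9 RPKM, and KRT19 went against the list at 114 to 190 RPKM.

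Of the 10 genes, DESeq2 called 1 higher in cadmium-resistant cells, and edgeR and limma-voom called 0. HMOX1, the stress-inducible heme oxygenase, was 5.58 times as abundant, and no other gene of the group passed an adjusted p-value of 0.1. DESeq2 called 1.14% of 19816 tested genes, 119 higher (0.601%) and 106 lower (0.535%), and with upper-quartile scaling 152 higher and 88 lower. Without control 2 it called 4 of the 10 higher (HMOX1, FTL, FTH1 and TFRC) and 2 lower (BLVRA and BLVRB), at 1150 higher and 1161 lower among 15625 genes. Without control 3 it called HMOX1 higher and 4 lower (HMOX2, BLVRB, FTH1 and TFRC), at 2678 higher and 3511 lower among 19813 genes. FTH1 and TFRC thus took opposite directions according to which control was kept. All 10 genes were abundant enough to be tested, with 5 log2 fold changes above 0 and 5 below, and a median of -0.03 against -0.02 over all tested genes. Both cadmium libraries lay above both controls for 3 genes (HMOX1, FTL and SLC11A2) and below both for 3 (BLVRA, BLVRB and SLC40A1), where 20.3% and 19.9% of the tested genes did so (17.1% and 24.9% of those averaging 1000 or more). With 2 libraries a group, an exact two-sided permutation test cannot go below p = 0.333, so no test of single values was made.

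**Figure D1:**
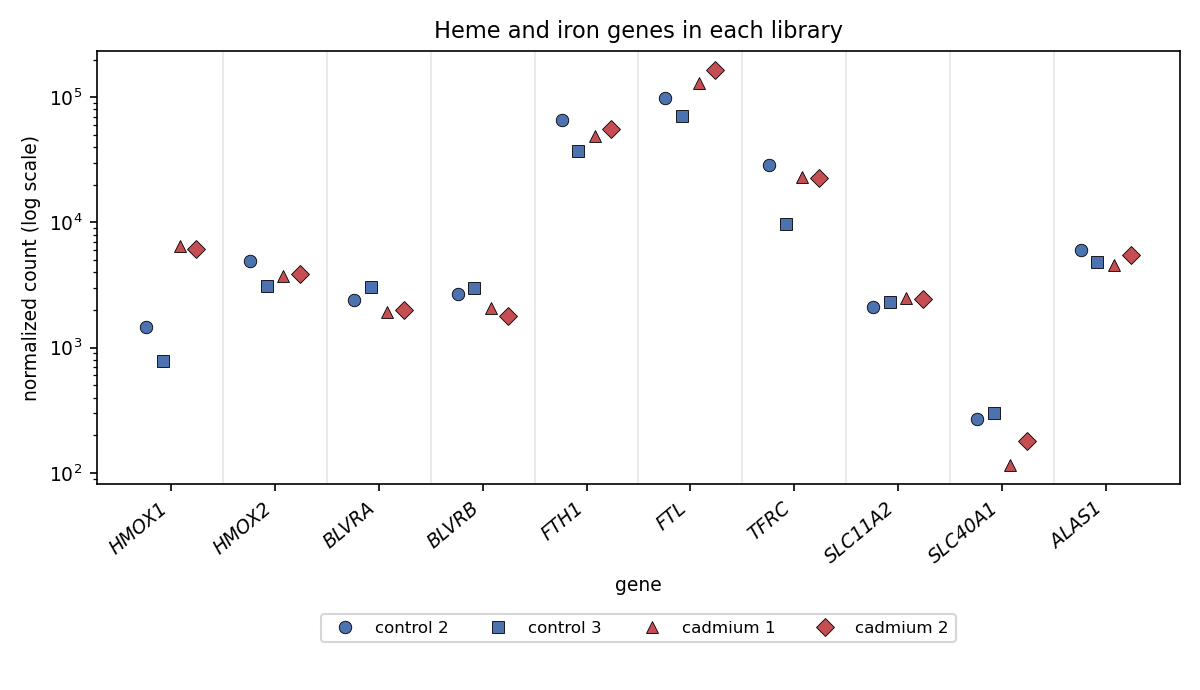
Normalized counts (log scale) of the 10 heme and iron genes, 1 point per library, with 2 control libraries in blue and 2 cadmium libraries in red. HMOX1 shows the widest gap between the groups, with 786 and 1469 in the controls and 6141 and 6436 in the cadmium libraries, while the control points of TFRC, FTH1 and HMOX2 enclose the cadmium points.

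HMOX1 (ENSG00000100292, chromosome 22, 35380361 to 35394214, hg38, plus strand) had normalized counts of 1469 and 786 in controls 2 and 3 and 6436 and 6141 in cadmium libraries 1 and 2. The cadmium libraries nearly coincided, while the controls differed by 1.87-fold, and the groups were far apart. Its ratio was between 4.18 and 8.19 when each cadmium library was divided by each control (4 pairings). DESeq2 gave a log2 fold change of 2.48 (SE 0.36, adjusted p-value 1.58e-08), which placed it 8 by adjusted p-value among the 119 genes called higher. The edgeR quasi-likelihood test gave a log2 fold change of 2.48, an unadjusted p-value of 6.36e-04 and an adjusted p-value of 0.587, and it called 0 of 19241 genes, although 1506 (7.83%) had an unadjusted p-value below 0.05.

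HMOX2, which encodes the constitutive heme oxygenase (chromosome 16, 4474690 to 4510347), stayed inside the control range. Its normalized counts were 4968 and 3130 in controls 2 and 3 and 3741 and 3881 in cadmium libraries 1 and 2. The log2 fold change was -0.09 with a 95% interval from -0.72 to 0.54 (DESeq2 adjusted p-value 1.00). A difference in either direction within that interval could therefore not be seen. The sign depended on the control kept: it was 0.28 without control 2 and -0.39 without control 3.

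The balance of the heme oxygenases can be read within each library, where scaling between libraries plays no part. The ratio of HMOX1 to HMOX2 in reads per kilobase was 0.433 and 0.368 in controls 2 and 3 and 2.52 and 2.32 in cadmium libraries 1 and 2. HMOX1 thus gave 30.2% and 26.9% of the summed level in the controls and 71.6% and 69.9% in the cadmium libraries. The sum of both genes was 36.0 and 23.0 RPKM in the controls and 71.1 and 68.2 RPKM in the cadmium libraries. The order of the pair was therefore opposite in the groups, in every library.

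**Figure D2:**
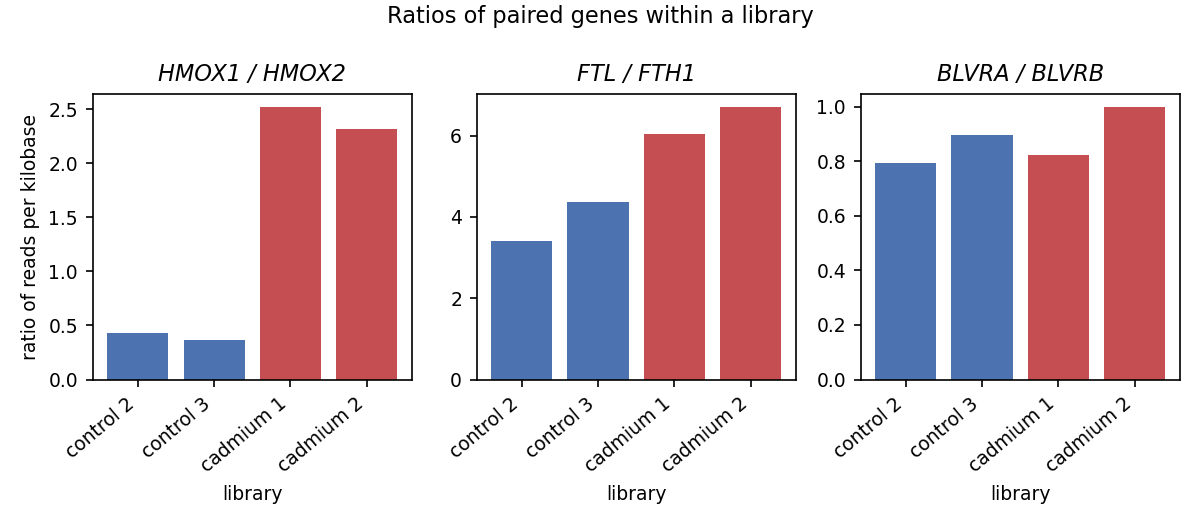
Ratio of reads per kilobase of exon between paired genes in each library, from 0, with controls in blue and cadmium libraries in red (1 bar per library, no error). HMOX1 over HMOX2 is below 1 in both controls and above 2 in both cadmium libraries, FTL over FTH1 is higher in both cadmium libraries, and BLVRA over BLVRB overlaps between the groups.

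Biliverdin reductases act on the product of heme oxygenase, and neither gene rose with HMOX1. BLVRB (chromosome 19, 40447765 to 40465764) had normalized counts of 2696 and 3018 in controls 2 and 3 and 2084 and 1778 in cadmium libraries 1 and 2. Both cadmium libraries lay below both controls (log2 fold change -0.56, 95% interval -1.09 to -0.04, DESeq2 adjusted p-value 0.619). BLVRA (chromosome 7, 43758680 to 43807342) had 2416 and 3047 in controls 2 and 3 and 1937 and 2003 in cadmium libraries 1 and 2. Its groups did not overlap either, at log2 fold change -0.47 (interval -1.01 to 0.06, DESeq2 adjusted p-value 0.822). The ratio of BLVRA to BLVRB per kilobase was 0.794 and 0.895 in the controls and 0.823 and 0.998 in the cadmium libraries, which overlap.

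Ferritin genes were the most abundant of the group. FTL, the light chain (chromosome 19, 48965309 to 48966879), had normalized counts of 98126 and 71204 in controls 2 and 3 and 129589 and 163701 in cadmium libraries 1 and 2. Both cadmium libraries lay above both controls, and the ratio of the means was 1.73. The log2 fold change was 0.79 with a 95% interval from 0.20 to 1.38, but its DESeq2 adjusted p-value of 0.324 did not pass (unadjusted p-value 0.00833, model fitted over all genes). By reads, FTL ranked 30 and 49 among all genes in the controls and 15 and 12 in the cadmium libraries. Pseudogenes of FTL with a read, 6 in number, had 0.371% to 0.453% as many reads as FTL, mostly from FTLP3.

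FTH1, the heavy chain with the ferroxidase activity (chromosome 11, 61959718 to 61967634), did not follow FTL. It had 66342 and 37461 in controls 2 and 3 and 49472 and 56216 in cadmium libraries 1 and 2, so the controls enclosed the cadmium libraries. The log2 fold change was 0.03 with an interval from -0.66 to 0.71 (DESeq2 adjusted p-value 1.00), and it was 0.49 without control 2 and -0.34 without control 3. Pseudogenes of FTH1 with a read, 16 in number, had 1.30% to 1.67% as many reads as FTH1, the most in FTH1P7. In the annotation behind the counts 63.2% of the exon bases of FTH1 are also exon of BEST1 on the opposite strand. Reads that fall there were dropped as ambiguous, so FTH1 levels are too low by an unknown amount, in every library.

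The ratio of FTL to FTH1 per kilobase was 3.40 and 4.37 in controls 2 and 3 and 6.03 and 6.70 in cadmium libraries 1 and 2. The groups did not overlap in this ratio, though FTH1 alone overlapped and the absolute ratio carries the bias of FTH1. Per read, with no division by length, it was 1.48, 1.90, 2.62 and 2.91 in the same order.

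Neither iron importer passed the test. TFRC, the transferrin receptor (chromosome 3, 196027183 to 196082096), had 28559 and 9790 in controls 2 and 3 and 22992 and 22830 in cadmium libraries 1 and 2. The controls were 2.92-fold apart and enclosed the cadmium libraries, which were 1.01-fold apart. Its log2 fold change of 0.26 had an interval from -0.67 to 1.18 (DESeq2 adjusted p-value 1.00) and turned from 1.22 without control 2 to -0.33 without control 3. SLC11A2, the divalent metal transporter that carries iron and can carry cadmium (chromosome 12, 50979401 to 51028566), had 2125 and 2331 in controls 2 and 3 and 2507 and 2441 in cadmium libraries 1 and 2. The groups did not overlap, but the log2 fold change was only 0.15 with an interval from -0.34 to 0.64 (DESeq2 adjusted p-value 1.00).

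SLC40A1, which encodes ferroportin, the iron exporter (chromosome 2, 189560590 to 189583758), was the least abundant. Its normalized counts were 269 and 301 in controls 2 and 3 and 116 and 181 in cadmium libraries 1 and 2. Here the controls were 1.12-fold apart and the cadmium libraries differed by 1.55-fold, and both lay below both controls. SLC40A1 had log2 fold change -0.94 (interval -1.73 to -0.15), and its adjusted p-value in DESeq2, 0.489, did not pass. The value was -0.66 without cadmium 1 and -1.29 without cadmium 2, and SLC40A1 was not called under any left-out library. Set against SLC11A2 in the same library, the level of SLC40A1 per kilobase was 0.296 and 0.303 in the controls and 0.109 and 0.174 in the cadmium libraries. SLC11A2 itself lay higher in both cadmium libraries, which widens this gap. Set against TFRC the ratio was 0.0174 and 0.0568 in controls 2 and 3 and 0.00936 and 0.0146 in cadmium libraries 1 and 2, so control 2 lay close to cadmium 2.

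ALAS1, the first and rate-limiting enzyme of heme synthesis in most cells (chromosome 3, 52198086 to 52214327), had 5996 and 4867 in controls 2 and 3 and 4583 and 5543 in cadmium libraries 1 and 2. The groups overlapped, with a log2 fold change of -0.10 and an interval from -0.65 to 0.44 (DESeq2 adjusted p-value 1.00). HMOX1 stood below ALAS1 in both controls, at 10.9 and 6.17 RPKM against 40.4 and 34.8 RPKM. In the cadmium libraries it stood above it, at 50.9 and 47.7 RPKM against 33.0 and 39.1 RPKM.

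**Figure D3:**
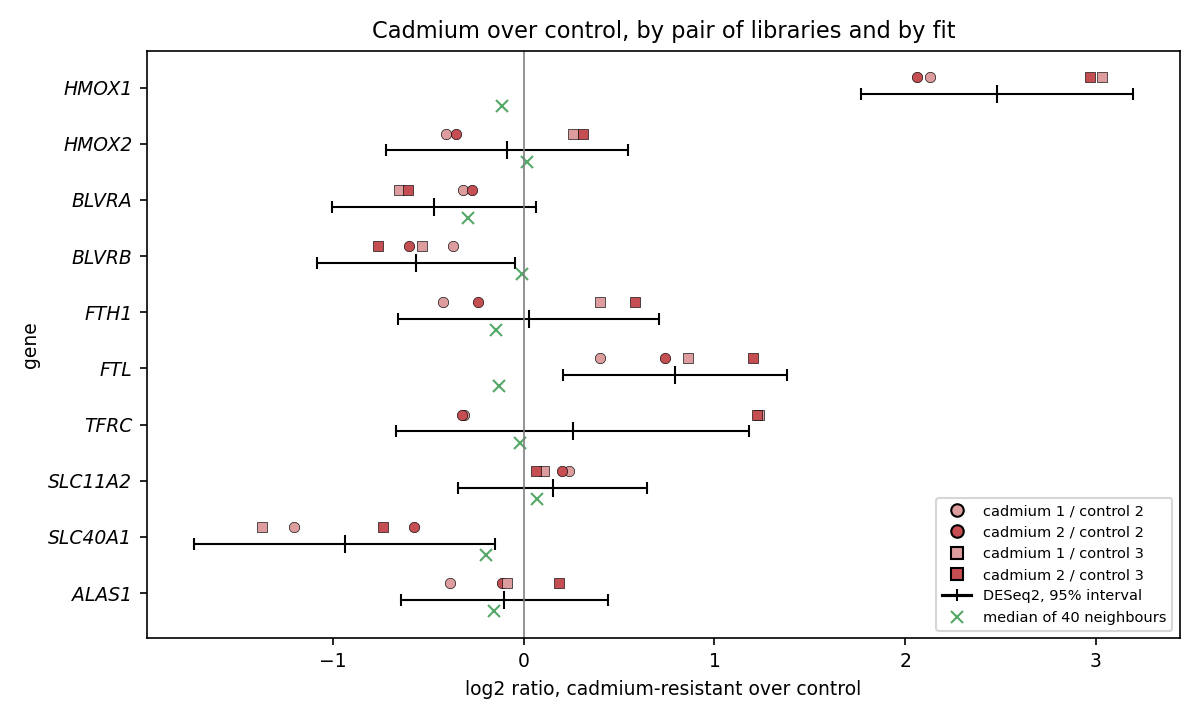
Log2 ratio of cadmium-resistant over control for each gene, as 4 pairings of libraries (circles, over control 2, and squares, over control 3, pale for cadmium 1 and dark for cadmium 2), as the DESeq2 log2 fold change with its 95% interval (black) and as the median of the 40 expressed neighbours (green cross). Only the interval of HMOX1 lies wholly above 1, and the circles and squares of HMOX2, FTH1 and TFRC fall on opposite sides of 0.

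Ordered by level per kilobase, the controls ran FTL, FTH1, TFRC, ALAS1, BLVRB, BLVRA, HMOX2, HMOX1, SLC11A2 and SLC40A1. The ranges of TFRC and ALAS1, of BLVRB and BLVRA, and of BLVRA and HMOX2 overlapped between neighbours in this order. Mean levels ran from 1702 RPKM for FTL to 1.19 RPKM for SLC40A1. In cadmium-resistant cells the range was 3038 to 0.635 RPKM for the same genes, and HMOX1 moved from rank 8, at a mean of 8.52 RPKM, to rank 4, at 49.3 RPKM. It lay there between TFRC and ALAS1, with no overlap with either. TFRC was close above it, at 53.8 and 52.4 RPKM against 50.9 and 47.7 RPKM in cadmium libraries 1 and 2. Lengths were of all annotated exons of a gene, 7794 bases for TFRC and 2306 for HMOX1. The order of genes this close depends on those lengths.

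Each gene was set beside its 40 nearest expressed genes, since earlier results of these data showed shifts over whole chromosome segments. The neighbours of HMOX1 had a median log2 ratio of cadmium over control of -0.11, so the gene stood 2.59 above them. FTL stood 0.92 above its neighbours, and BLVRB and SLC40A1 differed from theirs by -0.56 and -0.74. The neighbours of BLVRA had a median of -0.29, the lowest of the 10 neighbourhoods, against -0.06 over all 12924 genes, and BLVRA differed from them by -0.18. Whether the level of BLVRA reflects its chromosome segment was not tested.

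The genes whose profile over the 4 libraries was closest to that of HMOX1 were MT2P1, MT1X, MT2A, HIF1A-AS3 and MT1E, by the Euclidean distance of centred log2 normalized counts among the 12924 genes. The distances were 0.396, 0.414, 0.478, 0.491 and 0.569. MT2A, MT1X and MT1E encode metallothioneins, which bind cadmium, and MT2P1 is a pseudogene of MT2A whose reads may come from it. Each was lower in control 3 than in control 2, as with 474 against 801 normalized counts for MT1X. Each was called higher by DESeq2, with MT1X at a log2 fold change of 2.87. The genes were picked for a profile like that of HMOX1 in these same libraries, so both traits follow from the choice. HIF1A-AS3 overlaps HIF1A, and reads were counted without strand, with ambiguous reads dropped. HIF1A-AS3 had normalized counts of 150 and 50 in controls 2 and 3 and 513 and 440 in cadmium libraries 1 and 2. HIF1A had 22493 and 34450 in those controls and 27178 and 29175 in those cadmium libraries. Whether reads of HIF1A entered the count of HIF1A-AS3 was not tested. With 4 libraries this likeness is a description only.

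Another 62 genes of heme and iron metabolism were examined as a list, and 54 were abundant enough to be tested. DESeq2 called 0 of them higher and 0 lower, and edgeR called 0, while 4 had an unadjusted DESeq2 p-value below 0.05, where 6.92% of all tested genes did. The median log2 fold change was -0.16 against -0.02 over all genes. Both cadmium libraries lay above both controls for 7 of the 54 and below both for 15, beside 20.3% and 19.9% of all tested genes. Without control 2 DESeq2 called 7 of the list higher and 8 lower, and without control 3 it called 6 higher and 23 lower. Calls rose over all genes in the same fits, to 1150 higher and 1161 lower of 15625 and to 2678 higher and 3511 lower of 19813.

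All 8 tested genes of heme synthesis had a log2 fold change below 0, as did 10418 of the 19816 tested genes, with a median of -0.32, and both cadmium libraries lay below both controls for 6 of them. These 6 all averaged 1000 normalized counts or more, where 24.9% of genes did so. The other 2, PPOX and ALAS2, were named after their values were seen and lay near 0. PPOX had a log2 fold change of -0.07 (SE 0.35). ALAS2 had 0 and 27 reads in controls 2 and 3 and 21 and 7 in cadmium libraries 1 and 2. Its log2 fold change of -0.04 had an SE of 1.73, so its direction is not known. DESeq2 called 0 of the 8, and nothing particular to this role was tested. UROD, which decarboxylates uroporphyrinogen, had 6511 and 4636 in the controls and 3446 and 4279 in the cadmium libraries (log2 fold change -0.53, DESeq2 adjusted p-value 0.822). UROS, which makes the uroporphyrinogen, had 5125 and 5207 in the controls and 4091 and 4276 in the cadmium libraries (log2 fold change -0.30, DESeq2 adjusted p-value 0.982). Upper-quartile scaling, edgeR and limma-voom left 7 of the 8 below 0, and 6 were below 0 without control 3, where 4 were called lower and 1 higher. All 8 were below 0 without control 2, where 2 were called lower. UROD and UROS were among those called lower without control 3, and the log2 fold change of UROD ran from -0.76 to -0.27 over the left-out libraries.

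**Figure D4:**
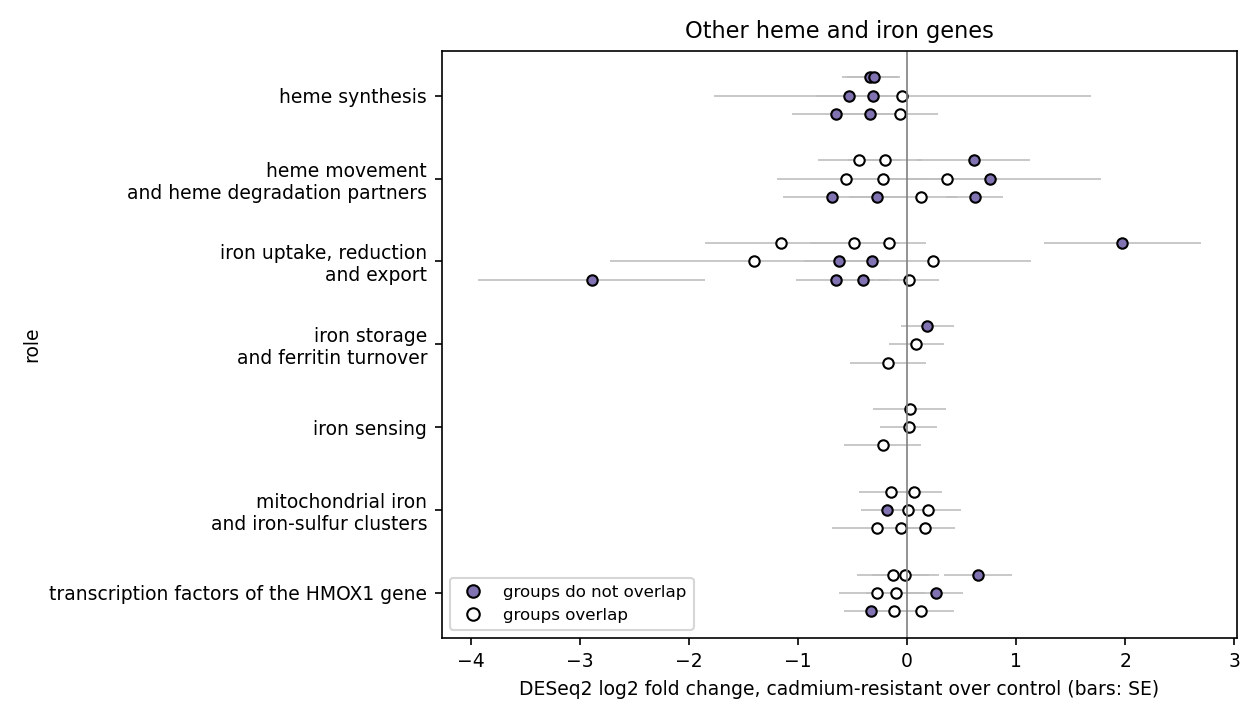
DESeq2 log2 fold change (x axis, bars SE) of the 54 tested genes of heme and iron metabolism outside the first 10, by role, with filled points where the libraries of the groups do not overlap. The 8 genes of heme synthesis all lie below 0, with ALAS2 and PPOX close to it, and the points of iron sensing lie close to 0.

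The other roles were mixed. Among heme partners PGRMC1, a heme-binding membrane protein, had 4874 and 5870 in the controls and 7874 and 8627 in the cadmium libraries, at log2 fold change 0.62 (DESeq2 adjusted p-value 0.466). Among iron transporters SLC39A14, a ZIP carrier of iron, zinc and cadmium, had a log2 fold change of -0.41. DESeq2 called both PGRMC1 and SLC39A14 when control 2 or control 3 was left out. LTF and LCN2, which encode secreted iron-binding and siderophore-binding proteins, were named after their values were seen. LTF had 32 and 10 reads in the controls and 74 and 89 in the cadmium libraries, and LCN2 had 73 and 18 against 8 and 4. Their log2 fold changes of 1.97 and -2.89 had DESeq2 adjusted p-values of 0.278 and 0.269, and their controls differed by 2.85-fold and 3.61-fold. With 1 library left out LTF ran from 1.40 to 2.92 and LCN2 from -3.55 to -1.68, and DESeq2 called LTF without control 2 (adjusted p-value 0.00735) and LCN2 without control 3 (adjusted p-value 0.00653). NCOA4, the cargo receptor that takes ferritin to the lysosome, had a log2 fold change of 0.19, and ACO1, the iron regulatory protein 1, one of 0.02. SLC25A37, the mitochondrial iron importer, had 0.16.

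Genes listed as transcription factors of HMOX1 did not pass either, and counts of RNA do not show the activity of their proteins. Whether each acts on HMOX1 in these cells was not tested. BACH1, a heme-binding repressor of HMOX1, had 2085 and 1746 in the controls and 3546 and 2460 in the cadmium libraries, at log2 fold change 0.65 (DESeq2 adjusted p-value 0.645). It was called without control 2, and its value was 0.36 without cadmium 1. NFE2L2, which encodes the activator NRF2, had 6472 and 4991 in the controls and 5272 and 5294 in the cadmium libraries (log2 fold change -0.12). BACH1, NFE2L2 and MTF1 were named after their values were seen, and MTF1 had a log2 fold change of -0.28 with overlapping groups. HIF1A, the most abundant of this role, had a log2 fold change of -0.01, which was 0.04 with upper-quartile scaling.

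Promoter motifs were looked for because the study also mapped MTF-1, the metal-responsive transcription factor. The study found most changes in MTF-1 binding away from transcription start sites. It saw no enrichment of the motif listed for MTF-1 in a public collection, a motif that the study doubted to be genuine. A motif match in a promoter here does not show binding. RefSeq promoters (GRCh38.p14, 250 bases before to 50 after the start, both strands) matched 8 of the 10 genes, all but HMOX1 and FTH1. The core of the metal response element, TGCACNC or TGCGCNC, was found in 6 of the 8 (HMOX2, BLVRA, BLVRB, TFRC, SLC40A1 and ALAS1), and in 33.4% of all genes with a promoter. The antioxidant response core TGACNNNGC was found in 0 of the 8, and in 16.1% of all genes. Base composition was not matched, and none of these 8 genes was called.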

How the data were processed

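RNA-seq was used from 2 control and 2 cadmium-resistant libraries of MDA-MB-231. The authors trimmed adaptors with bbduk, aligned read pairs to hg38 with HISAT2 and counted them with featureCounts 2.0.1 on an Ensembl 105 annotation. What the authors deposited is 1 table of raw counts, by gene and library. Per the file headers default settings applied: strand was ignored, multi-mapping and ambiguous reads were dropped, and each mate was counted. Gene symbols matched 61369 of 61541 genes.

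The 10 genes, the lists and the tests were chosen with earlier results of these data known. The test was DESeq2 1.42.0 under R 4.3.3 (group as the only term, two-sided Wald test, Benjamini-Hochberg adjustment over all genes after independent filtering, threshold 0.1). The study also used DESeq2, with settings not given in the sources used here. Alternatives were edgeR 4.0.16 (quasi-likelihood test), limma 3.58.1 (voom), other scalings and filters, halved counts, a threshold of 0.05, and leaving out each library. Intervals are 95% Wald intervals from the DESeq2 standard errors. Each standard error comes from a measure of spread (dispersion) shared by both groups and drawn toward a trend over all genes. It is therefore not the spread of the gene's own libraries. The unlike spread of the controls and of the cadmium libraries is not modelled. Scripts were tested on simulated data. Total counts were 51934729 to 61916007.

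Genes named from the longer list were the most abundant of each role (up to 3 for heme synthesis, of which 1 is not reported here), and others are marked as named after their values were seen. Sequences came from GENCODE 44 on hg38, whose spans share a start or end with 98.2% of the genes in both. Neighbours were the 40 nearest genes whose normalized counts averaged 100 or more. Plots used Python 3.11.15.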

Additional observations from a re-analysis of the deposited data

How the results depend on the processing

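No paired analysis was possible because the numbers heading the control columns do not match the replicate numbers of the labels. HMOX1 kept its direction under every alternative and its DESeq2 call under each scaling, filter and left-out library, with log2 fold changes from 2.09 to 2.999 when 1 library was left out. It did not pass with edgeR (2.48) or limma-voom (2.54). The calls over all genes, 119 higher and 106 lower, were 0 and 0 with both of these tools, and the calls among the 10 genes went from 1 to 0.

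With 1 library left out, the calls over all genes ranged from 9 to 2678 higher and from 5 to 3511 lower. Among the 10 genes they ranged from 1 to 4 higher and 0 to 4 lower, and among the 62 listed genes from 0 to 7 higher and 0 to 23 lower. The high counts came without a control library, where the spread rests on the cadmium pair alone and the lone control is assumed to vary like it. Over the same left-out libraries the log2 fold change turned sign for HMOX2 (-0.39 to 0.28), FTH1 (-0.34 to 0.49), TFRC (-0.33 to 1.22), ALAS1 (-0.26 to 0.055), ACO1 (-0.32 to 0.45), SLC25A37 (-0.037 to 0.38), HIF1A (-0.29 to 0.31), NFE2L2 (-0.30 to 0.080) and MTF1 (-0.61 to 0.13). Each of these took its extremes without a control. HIF1A also turned sign with limma-voom (0.021) and upper-quartile scaling (0.043).

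With 20 neighbours the neighbourhood medians moved to -0.087 for HMOX1, -0.12 for HMOX2 and -0.090 for BLVRB. The mean control ratio of FTL to FTH1 was 1.69 with no division by length and 3.89 with it. Apart from what leaving out a control does by construction, the cause of these differences was not tested.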
